A study of Mus musculus with 10 samples.

Results

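The genes described here are 10 components of the circadian clock, taken by their symbol in the array annotation. They are Arntl, Npas2 and Clock of the activating arm, Per1, Per2 and Per3 of the repressing arm, Nr1d1 and Nr1d2 of the stabilizing loop, and the output genes Dbp and Tef. A probe set, the group of short probes that reads a gene, carried 9 of the 10 as its only gene, out of 19938 genes measured in this way. Npas2 had no such probe set and was not analysed here.

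RNA of mouse skeletal muscle had been hybridized to Affymetrix Mouse Gene arrays, 10 in all. In the tibialis anterior (TA), which lies along the shin and is made mostly of fast fibers, the shlincMYH group had 2 arrays, with an shRNA against the long noncoding RNA linc-MYH, and the control vector group had 2. Both TA groups were green fluorescent fibers dissected 2 weeks after electroporation of 10 µg of plasmid, and the study's knockdown controls received an shLacZ plasmid in the opposite leg. In the gastrocnemius, a calf muscle, there were 3 arrays of cSix1 KO mice, a conditional knockout made with Cre recombinase driven by the human skeletal actin promoter, and 3 of wild type mice. The labels give the strain C56BL6N and 8 weeks of age for every group, and the treatment text places the electroporation itself at that age. This promoter drives Cre in muscle fibers, so other cells of the muscle were not targeted. The methods say that transfected muscles of a condition came from different mice, without tying arrays to mice, and for the gastrocnemius arrays this is not given in the sources used here, so p-values measure only the spread between these arrays, which may be technical. The time of day at which muscles were taken is also not given in the sources used here, so its part in the clock gene values was not tested.

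Values were log2 signals normalized by the authors, on which a difference of 1 is a doubling. Array medians were 5.09 to 5.14 in TA and 6.60 to 6.67 in gastrocnemius, so each muscle was described on its own scale and no level was compared between muscles. Arrays of the same muscle correlated at r = 0.982 to 0.985 in TA and 0.987 to 0.995 in gastrocnemius. The RNA targeted by the shRNA had no probe set of its own, and neither the knockdown nor the knockout was checked with these values.

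In the mammalian clock, BMAL1 (encoded by Arntl) pairs with CLOCK or NPAS2 and activates genes through E-box sequences. Among these genes are the Per genes, whose proteins return to the nucleus with cryptochromes and repress BMAL1 and CLOCK. Other targets are Nr1d1 and Nr1d2, which encode the REV-ERB repressors of Arntl acting at RORE sequences, and Dbp, whose protein activates further genes through D-box sequences. As a result Arntl messenger RNA peaks in peripheral tissues, muscle included, at nearly the opposite time of day to Nr1d1 and Dbp, and the Per genes peak somewhat after these.

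The sequence letters through which this loop is wired can be read in the promoters of some of these genes. RefSeq promoter windows of GRCm38.p6, from 250 bases before to 50 bases after a gene start, were matched by symbol for 9 of the 10 genes in 14 windows, with none for Per2. They were searched on both strands for the E-box CACGTG, the D-boxes TTATGTAA and TTATGCAA, the RORE core TAGGTCA and the cyclic AMP response element TGACGTCA. The windows that held one of these are shown with the match in capitals and flanking bases in lower case, 5′ to 3′ on the gene's strand.

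Arntl, RORE core, chr7:113207531-113207560, plus strand: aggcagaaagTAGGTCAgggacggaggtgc
Per1, E-box, chr11:69098766-69098805, plus strand: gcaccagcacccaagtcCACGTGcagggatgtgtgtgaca
Per1, D-box, chr11:69098908-69098949, plus strand: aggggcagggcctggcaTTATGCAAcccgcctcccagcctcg
Per3, D-box, chr4:151044846-151044887, minus strand: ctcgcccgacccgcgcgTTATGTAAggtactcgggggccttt
Per3, D-box, chr4:151044799-151044840, minus strand: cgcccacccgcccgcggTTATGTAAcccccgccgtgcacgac
Tef, E-box, chr15:81802529-81802568, plus strand: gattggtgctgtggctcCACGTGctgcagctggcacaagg
Tef, E-box, chr15:81811259-81811298, plus strand: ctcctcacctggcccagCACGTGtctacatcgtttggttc

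The Arntl match began at base 31 of the transcript. The Per1 E-box lay 166 bases before the start of its window's transcript and the Per1 D-box 24 bases before it. The Per3 matches lay 205 and 158 bases before the start, and the Tef matches 127 and 138 bases before the starts of its 2 windows. Of 32851 promoter windows of this length, 7.15% held the E-box, 0.938% held TTATGTAA, 0.743% held TTATGCAA, 2.61% held the RORE core and 1.79% held the cyclic AMP response element. These matches are a description of letters in a short window and not of sites in use.

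The first question was whether the clock genes differed between the groups of each muscle, as they would if the groups stood at different clock phases. No clock gene passed the test in either muscle. In shlincMYH against control vector TA, 0 of 9 passed, and the smallest adjusted p was 0.708 (limma, Benjamini-Hochberg over 19938 genes, threshold 0.05). Over all genes 3 passed there, which is 0.0150% of those tested. In cSix1 KO against wild type gastrocnemius, 0 of 9 passed, and the smallest adjusted p was 0.460 by limma. There 181 genes were called higher and 166 lower, together 1.74% of all genes. At an unadjusted p under 0.05, 0 of 9 clock genes passed in TA, where 8.65% of all genes did, and 0 of 9 in gastrocnemius, where 14.9% of all genes did. The median log2 fold change of the 9 was -0.05 in TA, against -0.03 over all genes, and -0.08 in gastrocnemius, against 0.0080 over all genes. In each muscle 3 of the 9 were above 0 and 6 below.

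Precision differed between genes, and the intervals say which differences these arrays could leave unseen. In TA the 95% intervals of the 9 log2 fold changes lay between -0.97 and 0.62, and in gastrocnemius between -0.45 and 0.66. A p above the threshold does not show that the groups were alike.

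**Figure D1:**
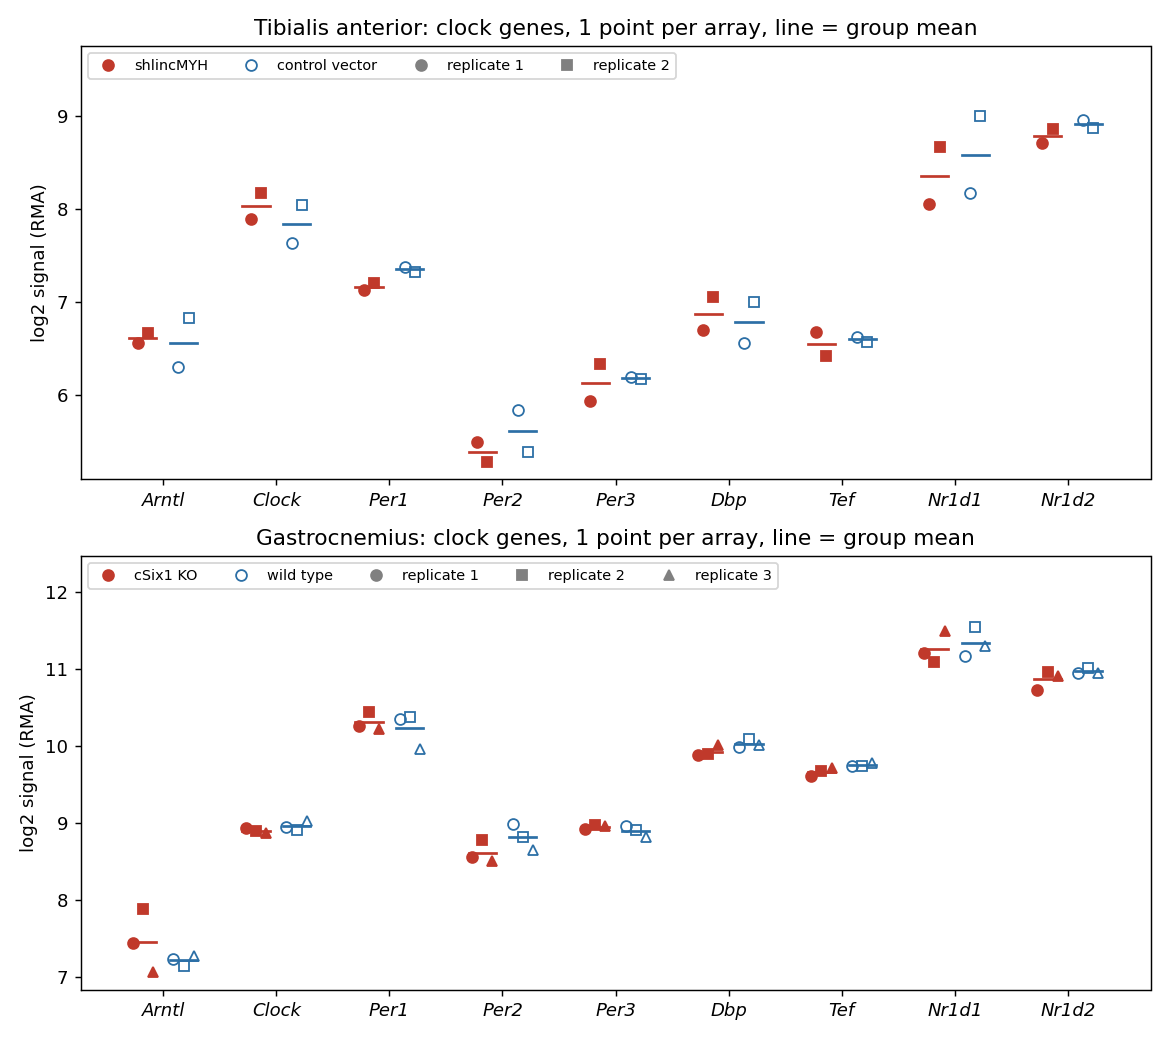
Log2 signal of the 9 measured clock genes in TA (top: filled, shlincMYH; open, control vector) and gastrocnemius (bottom: filled, cSix1 KO; open, wild type), 1 point per array with the replicate number as the symbol and a line at each group mean. The groups overlap for 7 of 9 genes in TA, where those of 39.3% of all genes do not. They overlap for 8 of 9 in gastrocnemius, where those of 20.9% of all genes do not. Nr1d1 in TA and Arntl in gastrocnemius are the genes whose arrays lie farthest apart.

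Arntl encodes the partner that all activation by the loop needs. In gastrocnemius its log2 signal was 7.44, 7.88 and 7.06 in cSix1 KO arrays 1, 2 and 3, against 7.24, 7.14 and 7.27 in wild type arrays 1, 2 and 3. The KO arrays held both the highest and the lowest Arntl signal of the 6, with the wild type arrays between them. The log2 fold change was 0.24 (SE 0.18, 95% interval -0.17 to 0.66, limma adjusted p = 0.628). KO replicates 2 and 3 moved this size in opposite directions. It was 0.03 without KO replicate 2 (adjusted p = 0.964 by limma) and 0.44 without KO replicate 3 (adjusted p = 0.122 by limma). In TA, Arntl was at 6.56 and 6.67 in shlincMYH arrays 1 and 2, against 6.30 and 6.83 in control vector arrays 1 and 2. The control arrays enclosed the shlincMYH arrays, and the log2 fold change was 0.05 (SE 0.19, limma adjusted p = 0.969).

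Clock encodes the other partner, whose messenger RNA cycles little in most tissues. Its gastrocnemius signal spanned 8.87 to 8.94 in cSix1 KO and 8.91 to 9.03 in wild type, a range of 0.15 over the 6 arrays and the narrowest of the 9 genes. Among all genes, its within-group SD of 0.05 stood at percentile 9.86 in gastrocnemius. In TA it was 7.89 and 8.17 in shlincMYH, against 7.64 and 8.04 in control vector, so replicate 2 was the higher array of both groups. The log2 fold changes were 0.19 in TA (limma adjusted p = 0.822) and -0.06 in gastrocnemius (limma adjusted p = 0.786).

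The Per genes encode the repressors that close the main loop, and Per1 and Per2 also answer acute signals such as glucocorticoids. Per1 in TA was 7.13 and 7.20 in shlincMYH and 7.38 and 7.32 in control vector. Both shlincMYH arrays lay below both controls, with a log2 fold change of -0.18 (SE 0.12, 95% interval -0.47 to 0.10, limma adjusted p = 0.708). With 2 arrays against 2, the groups of 39.3% of all genes did not overlap in TA, and of the clock genes 2 of 9 did not, Per1 and Nr1d2. In gastrocnemius Per1 was 10.26, 10.44 and 10.22 in cSix1 KO and 10.35, 10.38 and 9.97 in wild type, where wild type array 3 alone stood low. Its log2 fold change of 0.07 (limma adjusted p = 0.865) became -0.06 without that array (limma adjusted p = 0.858).

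Per2 had the smallest unadjusted p of the clock genes in gastrocnemius. It was 8.56, 8.78 and 8.51 in cSix1 KO, against 8.99, 8.82 and 8.65 in wild type. KO array 2 lay inside the wild type range, and the log2 fold change was -0.20 (SE 0.11, 95% interval -0.45 to 0.05, unadjusted p = 0.101, limma adjusted p = 0.460). In TA Per2 was 5.50 and 5.28 in shlincMYH, against 5.84 and 5.40 in control vector, with replicate 1 the higher array of both groups (log2 fold change -0.23, SE 0.18, limma adjusted p = 0.774). The third paralog, Per3, spanned 8.92 to 8.97 in cSix1 KO and 8.82 to 8.97 in wild type gastrocnemius. In TA its shlincMYH arrays, at 5.94 and 6.34, enclosed the control arrays, at 6.20 and 6.18. Log2 fold changes of Per3 were -0.05 in TA (limma adjusted p = 0.961) and 0.05 in gastrocnemius (limma adjusted p = 0.823).

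Nr1d1 encodes REV-ERBα, the direct repressor of Arntl. In TA it was 8.05 and 8.66 in shlincMYH arrays 1 and 2, against 8.18 and 8.99 in control vector arrays 1 and 2. Replicate 2 was higher than replicate 1 in each group by more than the groups differed (log2 fold change -0.23, SE 0.31, 95% interval -0.97 to 0.52, limma adjusted p = 0.884). Its within-group SD of 0.51 was at percentile 98.6 of all genes in TA. In gastrocnemius it was 11.21, 11.09 and 11.49 in cSix1 KO, against 11.17, 11.55 and 11.30 in wild type. KO array 3 and wild type array 2 stood above the other 4, and the log2 fold change was -0.08 (SE 0.13, limma adjusted p = 0.868). The sign of this value was not stable, since it was 0.03 without wild type array 2 (limma adjusted p = 0.977) and, in TA, 0.18 without control array 2 (limma adjusted p = 0.870).

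Nr1d2 encodes the related repressor REV-ERBβ and varied less. In TA it was 8.71 and 8.86 in shlincMYH, against 8.95 and 8.87 in control vector (log2 fold change -0.13, limma adjusted p = 0.825). Here the gap between the groups was narrow, with shlincMYH array 2 just below control array 2. In gastrocnemius Nr1d2 was 10.73, 10.97 and 10.91 in cSix1 KO, against 10.95, 11.02 and 10.95 in wild type, so that KO array 1 alone lay clearly lower (log2 fold change -0.10, limma adjusted p = 0.633).

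Dbp and Tef encode PAR bZIP transcription factors that carry the clock signal to tissue genes. Dbp in gastrocnemius was 9.88, 9.89 and 10.01 in cSix1 KO, against 9.99, 10.09 and 10.02 in wild type. KO array 3 fell among the wild type arrays, and the log2 fold change was -0.10 (SE 0.07, 95% interval -0.26 to 0.06, limma adjusted p = 0.588). In TA, Dbp was 6.70 and 7.05 in shlincMYH, against 6.57 and 7.01 in control vector (log2 fold change 0.09, SE 0.19, limma adjusted p = 0.940). Tef in gastrocnemius was 9.61, 9.68 and 9.71 in cSix1 KO, against 9.74, 9.74 and 9.78 in wild type. It was the only clock gene whose gastrocnemius groups did not overlap, as was so for 20.9% of all genes, and the log2 fold change was -0.09 (SE 0.06, limma adjusted p = 0.627). In TA, Tef was 6.69 and 6.43 in shlincMYH, enclosing 6.63 and 6.57 in control vector (log2 fold change -0.04, limma adjusted p = 0.961).

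**Figure D2:**
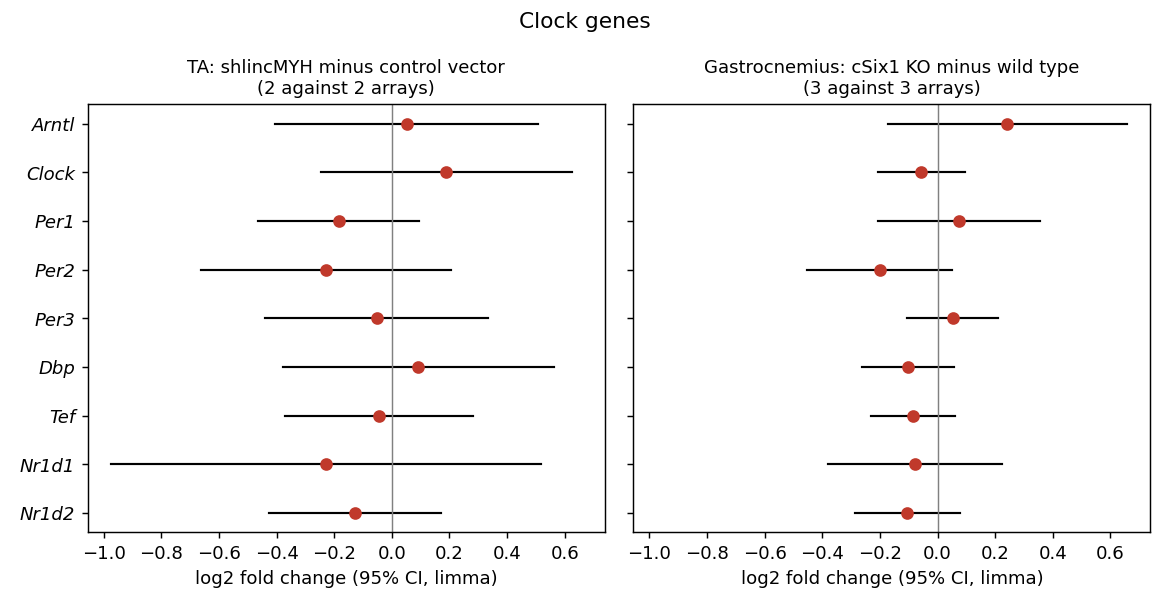
Log2 fold changes of the 9 clock genes with 95% limma intervals, shlincMYH minus control vector in TA (left, 2 against 2 arrays) and cSix1 KO minus wild type in gastrocnemius (right, 3 against 3 arrays). Every interval spans 0, and the widest are Nr1d1 in TA, from -0.97 to 0.52, and Arntl in gastrocnemius, from -0.17 to 0.66.

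The fold changes were then compared between the muscles in 1 limma fit over the 10 arrays. The difference (shlincMYH minus control vector, minus cSix1 KO minus wild type) passed for 0 of 9 clock genes, with adjusted p of 0.597 to 0.977, where 0.145% of all genes passed. At an unadjusted p under 0.05, 0 of 9 clock genes passed and 12.3% of all genes did. Clock had the highest value, 0.25 (95% interval -0.14 to 0.64), and Per1 the lowest, -0.26 (95% interval -0.66 to 0.14).

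The second question was whether activating and repressing genes moved in opposite directions from array to array, as they do along the circadian cycle. For each array, the mean deviation of Arntl and Clock from their means over the muscle was set beside that of the 7 Per, Nr1d, Dbp and Tef genes. In gastrocnemius these deviations had opposite signs on 5 of 6 arrays, though on KO array 2 the second was all but at 0. Arntl and Clock stood at 0.05, 0.25 and -0.17 on KO arrays 1, 2 and 3, where the 7 genes stood at -0.09, -6.8e-05 and -0.0015. On wild type arrays 1, 2 and 3, Arntl and Clock stood at -0.04, -0.11 and 0.01, and the 7 genes at 0.05, 0.10 and -0.05. On wild type array 3 the first mean joined Arntl at -0.07 and Clock at 0.10. Opposite signs thus occurred in both genotypes and did not separate them. Some rested on means near 0, and no share over all genes was computed for such signs.

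An arm index, the first deviation minus the second, summarizes this for each array. It was 0.15, 0.25 and -0.17 on the cSix1 KO arrays, against -0.09, -0.21 and 0.06 on the wild type arrays. Each genotype held arrays on both sides of 0, and the means were 0.08 ± 0.22 in cSix1 KO and -0.08 ± 0.14 in wild type (SD, n = 3 each). The index combines chosen genes, so it was given no test.

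In TA the signs were opposite on 1 of 4 arrays, control vector array 1. Arntl and Clock stood at -0.04 and 0.16 on shlincMYH arrays 1 and 2 and at -0.29 and 0.17 on control vector arrays 1 and 2. The 7 other genes stood at -0.14 and 0.02 in shlincMYH and at 0.01 and 0.10 in control vector. Both means were higher on replicate 2 than on replicate 1 in each group, but in control vector only Nr1d1 and Dbp of the 7 genes were, the other 5 being lower, and Per2 and Tef were lower in both groups. The arm index was 0.10 and 0.13 in shlincMYH, against -0.31 and 0.07 in control vector (means 0.12 ± 0.02 and -0.12 ± 0.27, SD, n = 2 each). The difference of 0.23 rested on control array 1, and was 0.04 without it.

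**Figure D3:**
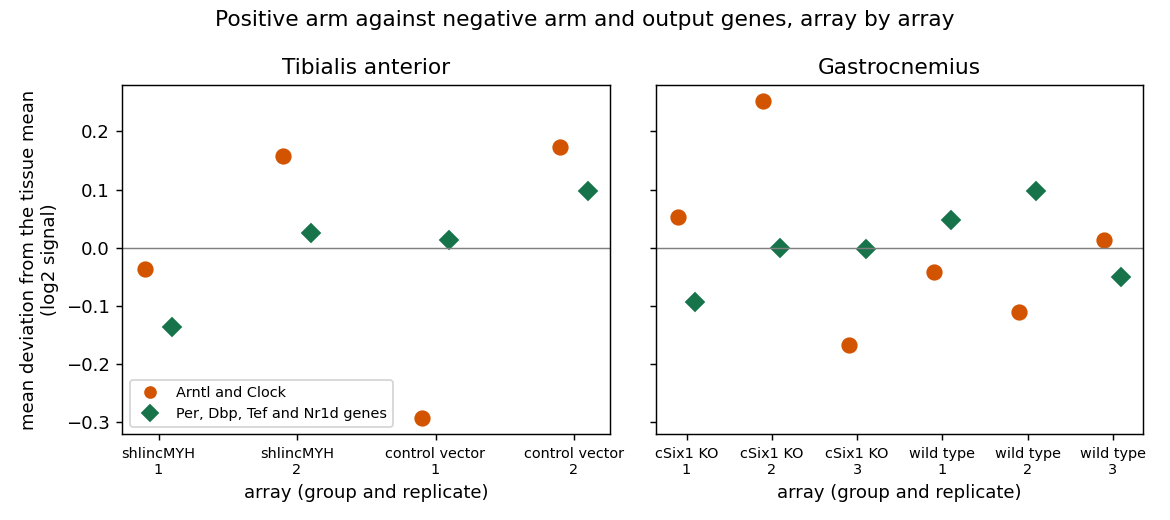
Mean deviation from the muscle's own mean (log2 signal) of Arntl and Clock (circles) and of the Per, Dbp, Tef and Nr1d genes (diamonds) on each array, with shlincMYH left of control vector (TA) and cSix1 KO left of wild type (gastrocnemius). Circles and diamonds lie on opposite sides of 0 on 5 of 6 gastrocnemius arrays, on cSix1 KO array 2 with the diamond all but at 0, and on 1 of 4 TA arrays.

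Within the gastrocnemius, single genes were then set against Arntl, and the lowest correlations were those of Nr1d1 and Dbp. The signs of Arntl and Nr1d1 did not match those of the means above on every array. KO array 3, the array without opposite signs, had Arntl at -0.28 and Nr1d1 at 0.19 from their muscle means. On wild type array 1 both were below 0, at -0.10 for Arntl and -0.13 for Nr1d1. On KO array 2, Arntl stood at 0.54, Nr1d1 at -0.22 and Dbp at -0.08. Of the other Per, Nr1d and Tef genes there, only Tef was below 0, at -0.03. The sign of their joint mean on that array, at -6.8e-05, thus rested on Nr1d1 and Dbp. Arntl and Nr1d1 correlated at r = -0.79 over the 6 arrays (exact permutation test, two-sided, p = 0.0403, adjusted over 8 pairs 0.239), with Spearman's rho = -0.77 (exact permutation p = 0.103, adjusted 0.700). The Nr1d1 correlation was again -0.79 on deviations from the group means and -0.69 without KO arrays 2 and 3, the 2 farthest from the median of Arntl. In the KO group the order of the arrays was exactly reversed between the 2 genes, with array 2 highest for Arntl and lowest for Nr1d1, and array 3 the opposite. In wild type, array 2 was lowest for Arntl and highest for Nr1d1.

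Arntl and Dbp correlated at r = -0.77 (exact permutation p = 0.0597, adjusted 0.239), with rho = -0.66 (exact permutation p = 0.175, adjusted 0.700). This was -0.71 on deviations from the group means and -0.97 without KO arrays 2 and 3. Dbp spread little in gastrocnemius, with a within-group SD of 0.06 against 0.10 for the median gene. No pair passed after adjustment over the 8 pairs, of which 5 lay below 0. The others were -0.45 for Tef (exact permutation p = 0.358, adjusted 0.808, with groups that did not overlap for Tef, within groups -0.18), -0.10 for Nr1d2, -0.07 for Clock, 0.13 for Per2, 0.25 for Per3 and 0.40 for Per1. Without KO arrays 2 and 3, the other pairs moved as far as any, with Nr1d2 at -0.98, Tef at -0.80 and Per2 at -0.69 over 4 arrays. Over all 6 arrays, adjusted exact permutation p-values of the pairs of Arntl with genes other than Nr1d1 and Dbp lay from 0.808 to 0.863.

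TA had too few arrays for a correlation, and its values ran another way. The labels number the arrays 1 and 2 in each group, without saying that a number marks a pair. For Arntl, replicate 2 exceeded replicate 1 by 0.11 in shlincMYH and 0.53 in control vector. Nr1d1 differed in the same direction, by 0.61 in shlincMYH and 0.82 in control vector, and so did Dbp, by 0.35 in shlincMYH and 0.44 in control vector. Clock differed by 0.28 in shlincMYH and 0.41 in control vector, and Per2 the other way, by -0.21 in shlincMYH and -0.45 in control vector. Replicate 2 minus replicate 1 had the same sign in both groups for 6 of 9 clock genes (66.7%), against 51.9% of all genes. It exceeded 0.2 with the same sign in both groups for 4 of 9 (44.4%), against 8.6% of all genes. These were Clock, Per2, Dbp and Nr1d1, whose within-group SD in TA stood at percentiles 87 to 98.6 of all genes. A fixed cut is met more readily by such genes, so the 2 shares are not a like comparison. Arntl and Nr1d1 thus ran together over the TA arrays and against each other over the gastrocnemius arrays, a difference that was not tested.

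**Figure D4:**
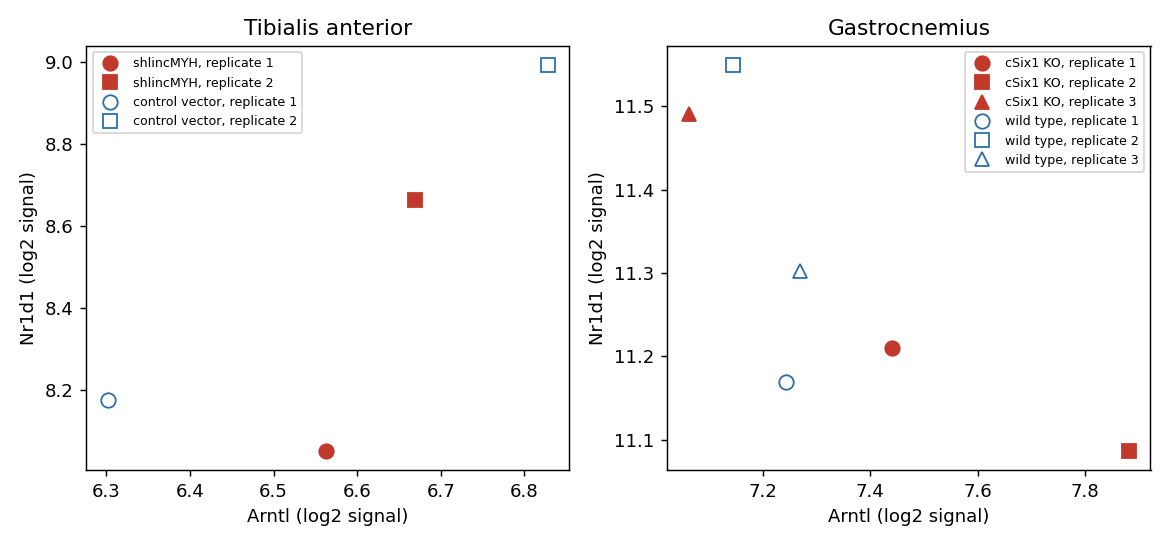
Nr1d1 against Arntl, both as log2 signal, 1 point per array, in TA (left: filled, shlincMYH; open, control vector) and gastrocnemius (right: filled, cSix1 KO; open, wild type). The gastrocnemius arrays run from high Nr1d1 with low Arntl to the reverse (r = -0.79, adjusted permutation p = 0.239), and the 4 TA arrays do not.

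Of the clock gene pairs that include Arntl or Dbp, the most alike was Dbp and Nr1d1. These are targets in the loop whose promoter windows searched here held no CACGTG. Other pairs were not computed in this way. Over the 10 arrays, as deviations from the 4 group means, they correlated at r = 0.97, and 19 of all genes measured correlated more highly with Dbp. Over the 6 gastrocnemius arrays alone this was 0.94, with KO array 3 and wild type array 2 the highest of their groups for both genes. The spread of Dbp in gastrocnemius was small, as given above. The other clock genes followed Dbp at r = 0.87 for Clock, 0.53 for Per3, 0.28 for Arntl, 0.23 for Nr1d2, -0.02 for Per1, -0.62 for Tef and -0.77 for Per2. Several of these turned or shrank over the 6 gastrocnemius arrays alone, where Clock was at -0.59, Arntl at -0.71, Tef at 0.55, Per3 at 0.05, Nr1d2 at 0.46, Per1 at -0.06 and Per2 at -0.40. These values describe arrays that share their group means and their normalization.

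Outside the clock, the genes most like Dbp over the 10 arrays were Tmem132a (r = 0.985), Coq10a (0.984), a coenzyme Q binding protein, Slamf9 (0.983), the phosphatase Ppm1a (0.979) and Rnf220 (0.978). Dbp had a within-group SD of 0.28 in TA and 0.06 in gastrocnemius, so the few TA arrays weigh most in these values. Values over gastrocnemius alone were not computed for these genes, which were picked as the highest of many. The genes most like Arntl were Xpot (0.999), an exporter of transfer RNA, Ppp4r2 (0.988), a phosphatase subunit, the ribosome biogenesis factor Krr1 (0.977), Dynlt3 (0.977) and Slc66a2 (0.974). No clock gene was among the most Arntl-like genes: the closest, Clock, had r = 0.54, with 2616 genes above it.

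The clock genes differed among themselves in how far their replicate arrays spread. In gastrocnemius the within-group SD was 0.29 for Arntl (percentile 97.1 of all genes), 0.20 for Nr1d1 (percentile 89.9), 0.18 for Per1 (percentile 86.4) and 0.16 for Per2 (percentile 78.1). At the other end were Tef (percentile 5.68), Clock (percentile 9.86), Per3 (percentile 15.1) and Dbp (percentile 18.2). The median gene had an SD of 0.10 in gastrocnemius and 0.13 in TA. In TA, Nr1d1, Dbp (percentile 91.1), Arntl (percentile 89.7), Clock (percentile 87.2) and Per2 (percentile 87) were the spread genes, and Per1 (percentile 10.9) was among the tightest.

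Other genes of the clock were read through a list of 16, of which 14 were measured. None of the 14 passed in either muscle after adjustment by limma. At an unadjusted p under 0.05 there were 1 of 14 in TA, where 8.65% of all genes passed, and 4 of 14 in gastrocnemius, where 14.9% of all genes passed, all of them with negative log2 fold changes. In gastrocnemius 10 of the 14 were below 0 (median -0.05), and in TA 8 of 14 (median -0.01).

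The gastrocnemius values nearest the threshold were those of Hlf, the third PAR bZIP factor beside Dbp and Tef. Hlf was 8.12, 8.18 and 8.08 in cSix1 KO, against 8.42, 8.54 and 8.46 in wild type. Every KO array lay below every wild type array (log2 fold change -0.34, SE 0.07, 95% interval -0.50 to -0.19, limma adjusted p = 0.0537), and Hlf passed under 5 of 15 alternatives. It was also lower in TA on both shlincMYH arrays, at 5.67 and 5.94, against 6.19 and 6.45 in control vector (log2 fold change -0.51, SE 0.15, unadjusted p = 0.0151, limma adjusted p = 0.494). The fold changes of Hlf did not differ between the muscles beyond their error (-0.17, 95% interval -0.51 to 0.17, limma adjusted p = 0.713).

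Ciart encodes a repressor of BMAL1 and CLOCK, and Bhlhe41 (DEC2) competes with them at E-boxes. Ciart was 8.83, 9.21 and 9.21 in cSix1 KO, against 9.92, 9.89 and 9.43 in wild type gastrocnemius. No KO array reached the lowest wild type array (log2 fold change -0.66, SE 0.15, limma adjusted p = 0.0874), and without that array, wild type 3, it passed (-0.82, limma adjusted p = 0.0498). Bhlhe41 was 8.63, 8.59 and 8.74 in cSix1 KO, against 8.99, 9.08 and 9.44 in wild type (log2 fold change -0.52, SE 0.12, limma adjusted p = 0.0801). Csnk1e, the casein kinase that marks PER proteins for decay, was 10.23, 10.12 and 10.16 in cSix1 KO, against 10.48, 10.48 and 10.38 in wild type (log2 fold change -0.28, SE 0.07, limma adjusted p = 0.100). In TA these 3 genes overlapped between the groups, with log2 fold changes of 0.03 for Ciart, -0.13 for Bhlhe41 and -0.01 for Csnk1e, and the differences between the muscles did not pass (limma adjusted p = 0.348 for Ciart, 0.519 for Bhlhe41 and 0.482 for Csnk1e). The cryptochromes Cry1 and Cry2, partners of the PER proteins, did not pass either.

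**Figure D5:**
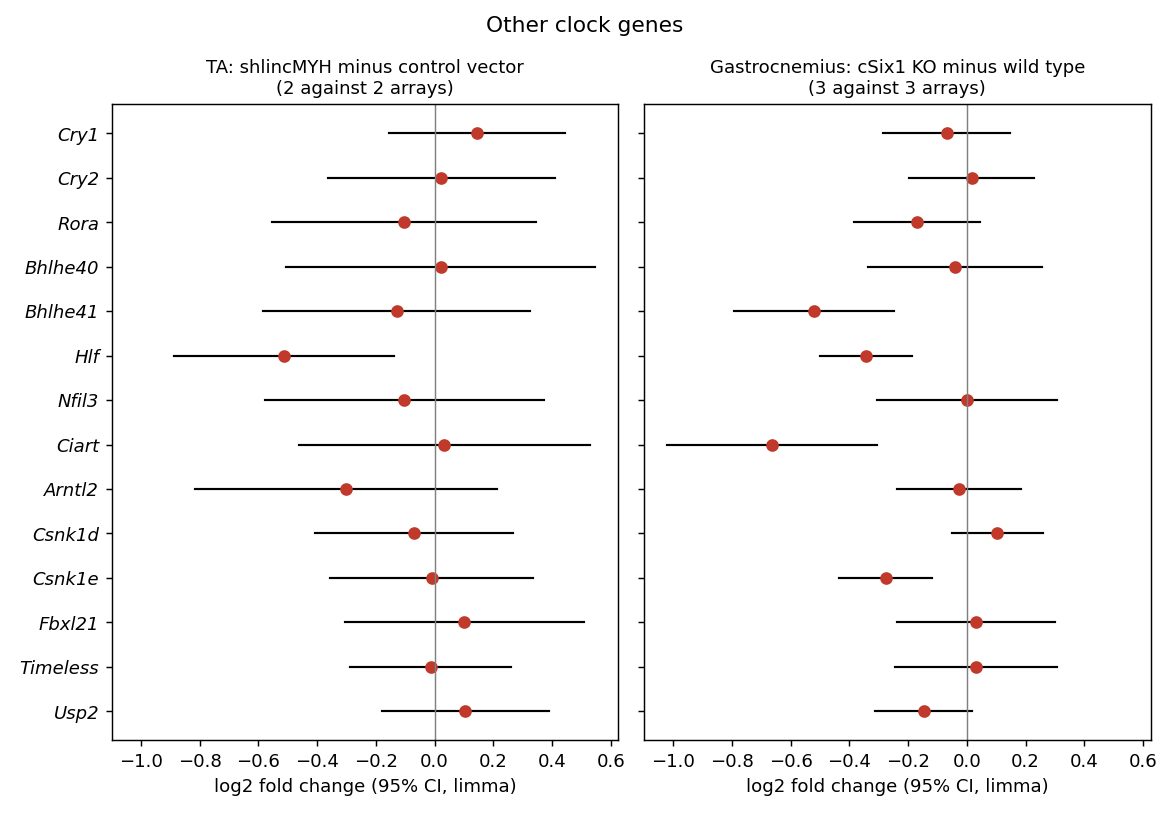
Log2 fold changes with 95% limma intervals of 14 further clock genes, shlincMYH minus control vector in TA (left) and cSix1 KO minus wild type in gastrocnemius (right). In gastrocnemius the intervals of Bhlhe41, Hlf, Ciart and Csnk1e lie below 0 before adjustment, with adjusted p of 0.0537 to 0.100, and in TA that of Hlf does.

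Markers of other cells stand beside these values for the gastrocnemius. All 5 macrophage markers were above 0 (median log2 fold change 0.73), with a mean log2 signal of 8.37 to 9.03 in cSix1 KO against 7.80 to 8.07 in wild type, and Mrc1 alone passed (0.77, limma adjusted p = 0.0139). The 5 fibroblast markers were above 0 as well (median 0.49, none passing), with overlapping mean signals of 10.97 to 11.26 in cSix1 KO and 10.55 to 11.001 in wild type. The 6 muscle fiber markers were below 0 with none passing, from -0.41 for Pvalb (limma adjusted p = 0.0525) to -0.0080 for Acta1, at a mean signal of 13.49 to 13.56 in cSix1 KO against 13.66 to 13.72 in wild type. In TA the 5 endothelial markers were below 0 (median -0.78), at 6.44 to 7.15 in shlincMYH against 7.48 to 7.54 in control vector, none passing. At an unadjusted limma p under 0.05, gastrocnemius had 4 of 5 macrophage and 4 of 5 fibroblast markers (14.9% of all genes). It also had 2 of 6 muscle fiber markers and 0 of 5 endothelial markers. TA had 4 of 5 endothelial markers and 0 of the macrophage, fibroblast and muscle fiber markers (8.65% of all genes). Array signals have no zero, so no marker can be called absent. The muscle fiber markers, which check the labelled tissue, lay far above the array medians in TA too, with a mean signal of at least 11.94 in shlincMYH and 12.12 in control vector. The part of these markers in the clock gene values was not tested. In RNA of a muscle sample, fewer cells of a type cannot be told apart from less RNA per cell. How much other tissue came with the dissected TA fibers is not given in the sources used here.

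Rhythmic genes of muscle that lie downstream of the clock were read through a list of 12. One passed: Tcap, the sarcomere protein telethonin, was 11.53, 11.47 and 11.59 in cSix1 KO, against 11.96, 11.94 and 11.85 in wild type. It fell by 0.38 on the log2 scale in cSix1 KO gastrocnemius (SE 0.07, limma adjusted p = 0.0389), where 1.74% of all genes passed. Tcap passed under 8 of 15 alternatives, with adjusted p from 0.00863 to 0.157. It did not pass without wild type array 1, 2 or 3 or without KO array 1 or 2 (limma adjusted p = 0.0668 to 0.157), and in TA its log2 fold change was -0.28 (limma adjusted p = 0.568). It is also a structural gene of the fiber, and the values of the fiber markers, none of which passed, are given above.

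Myod1, the myogenic factor and a target of CLOCK and BMAL1 in mouse muscle, was uneven over the KO arrays. It was 9.24, 8.86 and 8.06 on KO arrays 1, 2 and 3, against 8.15, 8.23 and 8.20 in wild type, so KO array 3 lay below all wild type arrays (log2 fold change 0.53, SE 0.25, limma adjusted p = 0.395). Without KO array 3 it passed (0.85, limma adjusted p = 0.0161). In TA it was 7.04 and 7.14 in shlincMYH, against 6.64 and 6.46 in control vector (log2 fold change 0.54, SE 0.13, limma adjusted p = 0.434). Slc2a4, the insulin-responsive glucose transporter, was lower on every KO array (log2 fold change -0.27, limma adjusted p = 0.114) and on both shlincMYH arrays (-0.35, limma adjusted p = 0.567). Pdp1, an activator of pyruvate dehydrogenase, had -0.23 in gastrocnemius (limma adjusted p = 0.380) and -0.45 in TA (limma adjusted p = 0.471). The medians of the 12 were -0.09 in gastrocnemius and -0.16 in TA. At an unadjusted limma p under 0.05 there were 6 of 12 in TA (8.65% of all genes) and 4 of 12 in gastrocnemius (14.9% of all genes). All of these were below 0 except Myod1 in TA.

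Signals that can reset or overlie the clock were read through further lists, and none of their genes passed after adjustment by limma in either muscle. No list was tested as a set. Of 12 glucocorticoid response genes 8 were above 0 in gastrocnemius (median 0.12) and 3 in TA (median -0.14). At an unadjusted limma p under 0.05 there were 0 of 12 in TA (8.65% of all genes) and 1 of 12 in gastrocnemius (14.9% of all genes). Metallothioneins had the widest values, with Mt2 at 11.06 and 9.80 in shlincMYH, against 9.89 and 8.36 in control vector (log2 fold change 1.30, limma adjusted p = 0.596), and Mt1 at 0.68 in TA (limma adjusted p = 0.709) and 0.33 in gastrocnemius (limma adjusted p = 0.276). Mt2 was higher on replicate 1 than on replicate 2 of both TA groups, the reverse of Nr1d1 and Dbp. Zbtb16 and Sgk1, induced by glucocorticoids, had -0.33 and -0.35 in TA (limma adjusted p = 0.635 for Zbtb16 and 0.638 for Sgk1) and 0.06 and 0.19 in gastrocnemius (limma adjusted p = 0.936 for Zbtb16 and 0.641 for Sgk1).

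Of 12 immediate early genes, which answer stimulation within minutes, 11 were above 0 in gastrocnemius (median 0.31) and 9 in TA (median 0.31). At an unadjusted limma p under 0.05 there were 6 of 12 in TA (8.65% of all genes) and 5 of 12 in gastrocnemius (14.9% of all genes). Among these, Nr4a1 alone was below 0, in both muscles. Egr1 was 9.48, 8.70 and 7.64 on cSix1 KO arrays 1, 2 and 3, against 7.97, 8.44 and 7.88 in wild type (log2 fold change 0.51, limma adjusted p = 0.655). Leaving out 1 array moved it from 0.07 (without KO array 1) to 0.99 (without KO array 3), neither passing. The KO array lowest for Egr1 was array 3, which was also the KO array lowest for Arntl, Myod1 and Atf3. Atf3 had 0.55 in gastrocnemius (limma adjusted p = 0.312; 0.84 without KO array 3, where it passed at 0.0155) and 0.89 in TA (limma adjusted p = 0.494), Junb 0.43 and 0.19 (limma adjusted p = 0.174 and 0.769), and Nr4a1, a nuclear receptor of exercised muscle, -0.45 and -0.46 (limma adjusted p = 0.308 and 0.489).

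Of 6 measured temperature response genes, 5 were above 0 in gastrocnemius (median 0.15) and 6 in TA (median 0.30). At an unadjusted limma p under 0.05 there were 2 of 6 in TA (8.65% of all genes) and 3 of 6 in gastrocnemius (14.9% of all genes), there with Hsph1 below 0. Beside heat shock genes the list holds Cirbp and Rbm3, which are not heat shock genes, so a shared sign is not 1 response. Cirbp had 0.11 in TA and 0.02 in gastrocnemius, and Rbm3 0.28 and 0.18. The chaperone Hsp90aa1 was 9.47 and 9.93 in shlincMYH, against 8.78 and 8.67 in control vector (log2 fold change 0.98, SE 0.17, limma adjusted p = 0.306), and 0.37 higher in cSix1 KO gastrocnemius without passing (limma adjusted p = 0.264), though it passed without KO array 3 (0.54, limma adjusted p = 0.0171). Hspa1a had 0.74 in TA (limma adjusted p = 0.431) and 0.30 in gastrocnemius (limma adjusted p = 0.247), where it passed without KO array 3 (0.42, limma adjusted p = 0.0345). Dnajb1 had 0.30 in TA and 0.13 in gastrocnemius (limma adjusted p = 0.640 and 0.741). Hsph1 had 0.30 in TA and -0.24 in gastrocnemius (limma adjusted p = 0.743 and 0.305).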

How the data were processed

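The authors deposited log2 signals that RMA had produced, with background subtracted, array distributions equalized and probes summarized to probe sets. Whether the 2 muscles were normalized together is not given in the sources used here. RMA compresses dim and bright signals and hides a shift of all genes. The submitters' processing notes name RMA and Partek. Labels and methods differ on the amount of RNA, the labelling kit, the software and the age of the TA mice. Of 35556 probe sets with 0 missing values, 21789 named 1 gene, 1621 several and 12146 none. The brightest probe set stood for each of 999 genes with more than 1, and each measured clock gene had 1.

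The 2 TA and 2 gastrocnemius groups, taken from the labels, were fitted per muscle with limma 3.58.1 in R 4.3.3 (lmFit, eBayes), with Benjamini-Hochberg adjustment over 19938 genes and a threshold of 0.05. All 10 arrays entered the fit of the difference between muscles. Correlations with Arntl used all 720 pairings of 6 arrays. Arrays give no depth, and their number limits the precision. Scripts ran in Python 3.11.15 with pandas 2.3.3, numpy 2.4.6 and matplotlib 3.10.9, and the tests were checked on simulated data.

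The genes and lists (other clock genes, rhythmic muscle genes, glucocorticoid response, immediate early genes, temperature response, and markers of muscle fibers, macrophages, endothelium, fibroblasts, adipocytes, Schwann cells, satellite cells and red blood cells) were chosen with earlier results of these data known. Named were all clock genes, up to 4 genes per list with the largest moderated statistic in either muscle, and the 5 genes of established name and above-median signal most like Arntl and most like Dbp. Mrc1 was named after its values were seen, as were Cry1, Cry2, Cirbp and Rbm3. The median log2 fold changes of the marker lists not described with the results were, in TA and then gastrocnemius, -0.15 and 0.26 for adipocytes, -0.24 and 0.06 for Schwann cells, 0.03 and 0.23 for satellite cells and -0.12 and 0.03 for red blood cells (1 gene measured), those of macrophages and fibroblasts in TA 0.0095 and 0.05, and that of endothelium in gastrocnemius 0.15. Alternatives were quantile normalization, centring on the median, leaving out dim genes, the mean of all probe sets, array weights, a robust prior with an intensity trend, the replicate block, all arrays in 1 fit, the methods' t-test and leaving out each array. Some genes are not reported here.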

Additional observations from a re-analysis of the deposited data

How the results depend on the processing

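No clock gene of the 9 passed under any alternative in either muscle or in the difference between muscles, the unadjusted t-test included, and no Arntl pair passed. The labels do not say that a replicate number marks a pair, and the values do not settle it: deviations of arrays with the same number correlated at 0.19 in TA and at 0.22, -0.14 and 0.08 in gastrocnemius. With the replicate block, limma called 5 genes higher in TA, 119 higher and 67 lower in gastrocnemius, 0 rhythmic muscle genes (Tcap adjusted p = 0.114) and 1 immediate early gene in gastrocnemius. The causes of all changes given here were not tested. For Nr1d1 in TA the block gave an adjusted p of 0.634.

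Counts over all genes moved most. In TA, 10 genes were called higher after centring on the median, 105 higher and 26 lower with all 10 arrays in 1 fit (1 temperature response gene, Hsp90aa1, adjusted p = 0.0451), 0 higher by the methods' t-test after Benjamini-Hochberg, and 599 higher and 784 lower unadjusted, with 3 rhythmic muscle genes and 3 immediate early genes. In gastrocnemius 254 were lower with dim genes left out, 282 lower with an intensity trend, 564 higher and 425 lower with array weights, and 102 lower with all 10 arrays in 1 fit. The t-test gave 3 higher and 1 lower after Benjamini-Hochberg, with 0 rhythmic muscle genes, and 1286 higher and 1317 lower unadjusted, with 4 other clock genes and 2 rhythmic muscle genes. Of the other clock genes in gastrocnemius, 1 passed after quantile normalization, 1 after centring and 1 with dim genes left out, 2 with an intensity trend (with 2 rhythmic muscle genes) and 4 with array weights (with 2 immediate early and 2 temperature response genes). For the difference between muscles, quantile normalization called 23 genes higher, leaving out dim genes 5 lower and the intensity trend 27 lower.

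Leaving out 1 array at a time gave 0 genes called higher in TA. In gastrocnemius it gave 32 (without KO replicate 2) to 351 (without KO replicate 3) higher and 19 to 209 lower, 0 to 1 other clock genes, 0 to 2 rhythmic muscle genes, 0 to 1 immediate early genes and 0 to 2 temperature response genes. For the difference it gave 1 to 61 higher and 5 to 39 lower. Log2 fold changes that changed sign in TA spanned -0.21 to 0.31 for Arntl, -0.014 to 0.39 for Clock, -0.25 to 0.15 for Per3, -0.13 to 0.31 for Dbp, -0.17 to 0.084 for Tef, -0.64 to 0.18 for Nr1d1, -0.35 to 0.090 for Bhlhe41, -0.20 to 0.27 for Ciart and -0.12 to 0.10 for Csnk1e. In gastrocnemius they spanned -0.058 to 0.15 for Per1, -0.19 to 0.026 for Nr1d1 and -0.082 to 0.25 for Zbtb16. The difference between muscles spanned -0.45 to 0.072 for Arntl, -0.25 to 0.19 for Per2, -0.31 to 0.10 for Per3, -0.026 to 0.41 for Dbp, -0.088 to 0.17 for Tef, -0.56 to 0.26 for Nr1d1 and -0.10 to 0.054 for Nr1d2. Correlations with Arntl spanned -0.42 to 0.53 for Clock, -0.14 to 0.62 for Per1, -0.18 to 0.37 for Per2, -0.28 to 0.45 for Per3 and -0.72 to 0.15 for Nr1d2, whereas those of Nr1d1 and Dbp stayed below 0.

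Centring on the median turned Csnk1e in TA to 0.024 and the difference between muscles to 0.033 for Per2 and 0.037 for Nr1d2, and array weights turned Zbtb16 in gastrocnemius to -0.033. Quantile normalization turned the correlation of Per3 with Arntl to -0.18. On deviations from the group means 3 pairs lay below 0, with Clock at 0.26 and Nr1d2 at 0.22. Without the 2 arrays farthest from the median of Arntl, the correlation was 0.19 for Clock, -0.24 for Per1, -0.69 for Per2 and -0.011 for Per3, and without a change of sign -0.98 for Nr1d2 and -0.80 for Tef. With each gene scaled by its SD, the arm index differed by 1.197 SD in TA and 0.46 SD in gastrocnemius. The 2 or 3 arrays a group limit the precision to the intervals given.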
